A study of Mus musculus with 15 samples.

Results

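Transcripts of 10 genes that govern the G1 phase of the cell cycle were followed across 5 groups of mouse blood cells: the D-type cyclin genes Ccnd1, Ccnd2 and Ccnd3, the E-type cyclin genes Ccne1 and Ccne2, the kinase genes Cdk4 and Cdk6, the inhibitor genes Cdkn1b and Cdkn2c, and Rb1. They were taken by symbol from a table of raw counts for 52327 genes, and all 10 were among the 13123 genes with enough counts to test. All groups were of the mouse line HoxB (cell type label Blood), with 3 libraries each. EMPTY cells carried control vectors. RUNX1-ETO_ONLY cells expressed the leukaemia fusion protein RUNX1-ETO, and CSF3R_ONLY cells expressed CSF3R-T618I, an activated form of the receptor for granulocyte colony-stimulating factor. RUNX1-ETO_FIRST and CSF3R_FIRST cells expressed both, and the name gives the allele that was introduced first. The question of the series is whether that order matters. The labels do not say how many clones, cultures or days stand behind a group, nor whether replicates were separate cultures, so p-values measure only the spread between these libraries, which may be technical.

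D-type cyclins bind CDK4 and CDK6 in response to growth signals, and the active kinases phosphorylate the retinoblastoma protein, which Rb1 encodes. This frees E2F transcription factors, which raise E-type cyclins and the enzymes of DNA replication, and cyclin E with CDK2 then completes entry into S phase. INK4 inhibitors such as p18, from Cdkn2c, block CDK4 and CDK6, whereas p27, from Cdkn1b, mainly blocks cyclin E with CDK2. In blood progenitors the D-type cyclins are known to be partly interchangeable, and CDK6 and CDK4 are the usual partners.

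Total counts per library were 17007437 to 18178292. Runx1t1, the source of the ETO portion, was at 0 in EMPTY and CSF3R_ONLY and at means of 448, 494 and 711 CPM (the usual sequencing unit, counts scaled to 1 fixed library size, here after TMM) in RUNX1-ETO_ONLY, RUNX1-ETO_FIRST and CSF3R_FIRST. Csf3r counts did not separate the receptor groups: they averaged 419.6 CPM in EMPTY, 524 in RUNX1-ETO_ONLY, 621 in CSF3R_ONLY, 419.3 in RUNX1-ETO_FIRST and 397 in CSF3R_FIRST. The gene counts do not tell the introduced receptor from the cell's own, so in the double groups the receptor allele rests on the labels. Blood genes (Ptprc, Spi1, Mpo, Kit, Cd34) had counts in all groups, with summed levels of 43170 to 47980 CPM in EMPTY, 19280 to 20310 with the fusion alone, 26720 to 27100 with the receptor alone, 14430 to 15960 with the fusion first and 13410 to 14770 with the receptor first. T and B cell genes summed to at most 0.44 CPM in a library. Markers of mast cells and neutrophils moved with the groups as well. The summed level of 7 mast cell genes was 1241 to 1731 CPM in EMPTY, 11420 to 12510 in RUNX1-ETO_ONLY, 3174 to 3226 in CSF3R_ONLY, 15260 to 18520 with the fusion first and 27530 to 32020 with the receptor first, and Fcer1a was at 0 in EMPTY. That of 7 neutrophil genes was 768.1 to 1288, 610.3 to 764, 6209 to 6702, 766.3 to 901.2 and 1378 to 1765 CPM in the same order of groups. Their part in the results was not tested. In bulk samples such as these, fewer cells of a type and less RNA per cell cannot be told apart. Genes with long exons were low for the group in 4 libraries. The rank correlation across 12799 genes between deviation and exon length was −0.54 in EMPTY replicate 3, −0.45 in the third replicate of RUNX1-ETO_ONLY, −0.42 in the first of RUNX1-ETO_FIRST and −0.39 in the third of CSF3R_FIRST, against −0.07 to 0.46 elsewhere.

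RefSeq promoter windows on GRCm38.p6 were at hand for 6 of the 10 members (8 windows), and were searched over the 250 bases before the transcript start. Those of the kinase genes Cdk4 and Cdk6 are shown because only they held any of 4 motifs searched on both strands, and that of Ccne1 as a cyclin gene without one. Capitals mark the matches, which are to the E-box CACGTG, and, in Cdk4, also to the RUNX motif TGTGGT in its reverse form ACCACA.
Ccne1, chr7:38107491-38107740, minus strand: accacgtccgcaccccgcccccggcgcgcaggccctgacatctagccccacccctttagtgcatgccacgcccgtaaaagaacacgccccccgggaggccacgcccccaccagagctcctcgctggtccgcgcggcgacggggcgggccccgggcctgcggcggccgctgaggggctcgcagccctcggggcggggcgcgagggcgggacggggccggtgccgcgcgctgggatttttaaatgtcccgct
Cdk4, chr10:127063285-127063534, plus strand: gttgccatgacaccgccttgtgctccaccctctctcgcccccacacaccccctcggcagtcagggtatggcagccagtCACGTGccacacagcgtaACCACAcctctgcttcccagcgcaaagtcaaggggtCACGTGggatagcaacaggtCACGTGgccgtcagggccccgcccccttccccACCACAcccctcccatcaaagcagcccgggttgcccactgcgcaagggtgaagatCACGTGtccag
Cdk6, chr5:3343643-3343892, plus strand: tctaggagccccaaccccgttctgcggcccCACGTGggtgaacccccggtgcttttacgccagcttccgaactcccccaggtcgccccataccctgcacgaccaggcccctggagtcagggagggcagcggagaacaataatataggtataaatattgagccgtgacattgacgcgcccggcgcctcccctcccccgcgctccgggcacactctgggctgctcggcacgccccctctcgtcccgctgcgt
The Cdk4 window held 4 E-boxes, 172, 118, 98 and 11 bases before the start, and 2 RUNX motifs, 154 and 66 bases before it, whereas that of Cdk6 held 1 E-box and that of Ccne1 none of the motifs. The E-box was in 6.02% of all 32851 windows and the RUNX motif in 14.0%. The STAT motif TTCNNNGAA (7.02%) and the AP-1 motif TGANTCA (6.75%) were in none of the 8 member windows. No binding was measured, and these matches are descriptions of the letters only.

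Levels per length put the kinases and cyclin D3 on top. In EMPTY, Cdk4 averaged 156 CPM per kilobase of exon, Ccnd3 51.6 and Cdk6 47.5. Ccnd2 followed at 17.0, then Ccne1 at 11.4, Cdkn1b at 11.2, Ccne2 at 10.9, Rb1 at 8.73 and Cdkn2c at 4.40, with Ccnd1 lowest at 1.53. By this measure Cdk4 led and Ccnd1 was last in all 5 groups, and Ccnd2 went from the fourth place in EMPTY to the ninth in CSF3R_ONLY, RUNX1-ETO_FIRST and CSF3R_FIRST. The lead of Cdk4 depends on the length assumed. All annotated exons span 8775 bases for Ccnd3 and 3249 for Cdk4, but the longest coding transcripts span 2113 and 2053. With the latter lengths Ccnd3 would lead in CSF3R_ONLY, where it averaged 734 CPM and Cdk4 402. The group means of Ccnd1 spanned 15.5-fold and those of Ccnd2 10.6-fold, more than in 92.6% and 90.7% of the tested genes. The other members spanned 1.33-fold (Cdk4) to 2.13-fold (Ccne2), around the median of 1.64-fold for all tested genes.

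**Figure D1:**
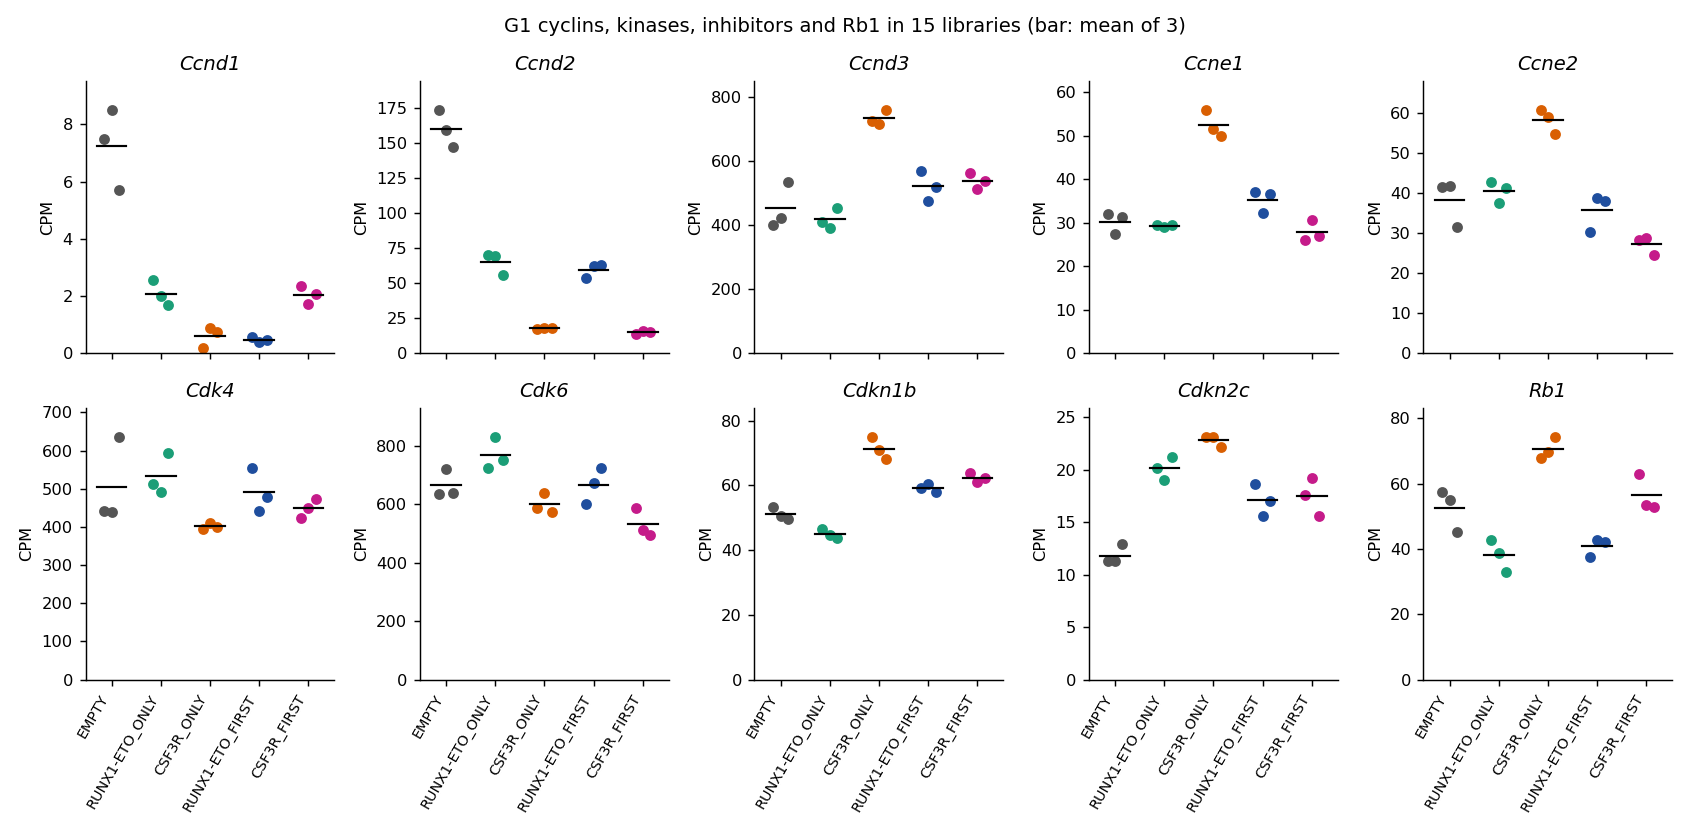
CPM of each member in the 15 libraries, with its own axis starting at 0 in each panel. Points are libraries and bars are means of 3; Ccnd1 and Ccnd2 were highest in EMPTY, and 6 of the other members were highest in CSF3R_ONLY.

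Cyclin D2 transcripts fell with either allele, and in the double groups they stood close to the level seen with the first allele alone. In EMPTY the Ccnd2 libraries (chromosome 6, 127125162 to 127152193, minus strand, mm10) had 174, 159.6 and 147 CPM. The fusion alone gave 70.0, 69.4 and 55.8 CPM, and RUNX1-ETO_FIRST 53.6, 62.1 and 62.9 CPM. The receptor alone gave 17.4, 17.6 and 17.9 CPM, and CSF3R_FIRST 13.7, 16.1 and 15.5 CPM. The libraries of RUNX1-ETO_ONLY and RUNX1-ETO_FIRST overlapped, and those of CSF3R_FIRST lay just under those of CSF3R_ONLY, and apart from the former pair no 2 groups overlapped. Against EMPTY, Ccnd2 fell by 1.30 on the log2 scale with the fusion (SE 0.0996, adjusted p = 3.58e-08 by edgeR's quasi-likelihood test with Benjamini-Hochberg adjustment over 13123 genes, as for all adjusted p-values here) and by 3.18 with the receptor (SE 0.109, 4.52e-12). It fell by 1.43 in RUNX1-ETO_FIRST and by 3.41 in CSF3R_FIRST (adjusted p = 9.08e-09 and 5.80e-13). Between the orders it was 3.94-fold higher with the fusion first (log2 1.98, 95% interval 1.75 to 2.21, adjusted p = 1.31e-08).

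The second allele made little difference to Ccnd2 beside these changes. Receptor added to fusion cells gave −0.13 on the log2 scale (95% interval −0.34 to 0.08, adjusted p = 0.389). Fusion added to receptor cells gave −0.23 (−0.46 to 0.01, adjusted p = 0.109), and this difference passed when scaled by library size only (0.0483) and when the 4 libraries poor in long transcripts were left out (0.0328).

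Cyclin D1 was scarce and fell in all 4 groups with an allele, but the double groups stood near the level of the allele introduced second. Ccnd1 (chromosome 7, 144929931 to 144939925, minus strand) had 136, 153 and 95 counts in EMPTY, or 7.49, 8.49 and 5.69 CPM. RUNX1-ETO_ONLY had 2.55, 2.0 and 1.68 CPM, and CSF3R_FIRST 2.34, 1.71 and 2.06 CPM. CSF3R_ONLY had 0.175, 0.868 and 0.749 CPM, from 3, 15 and 13 counts, and RUNX1-ETO_FIRST 0.561, 0.385 and 0.451 CPM, from 10, 7 and 8 counts. RUNX1-ETO_ONLY and CSF3R_FIRST thus overlapped, as did CSF3R_ONLY and RUNX1-ETO_FIRST, and all 6 libraries of the first pair lay above all 6 of the second. Differences within these pairs were not tested. Relative to EMPTY the log2 difference was −1.80 with the fusion (adjusted p = 5.25e-05), −3.58 with the receptor (3.17e-07), −3.94 in RUNX1-ETO_FIRST (8.86e-08) and −1.82 in CSF3R_FIRST (3.31e-05). Between the orders Ccnd1 was 4.33-fold lower with the fusion first (log2 −2.12, 95% interval −2.92 to −1.31, adjusted p = 0.000983).

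Each second allele moved Ccnd1, in opposite directions. Adding the receptor to fusion cells lowered it 4.42-fold (log2 −2.14, SE 0.371, adjusted p = 0.000433), and adding the fusion to receptor cells raised it 3.38-fold (log2 1.76, SE 0.364, adjusted p = 0.00091). With 3 to 15 counts per library in the lowest groups, counting error is a large share of these values, and the receptor-alone difference ranged from −3.94 to −3.15 over the alternatives. LTO1, a gene on the opposite strand, shares up to 818 exon bases with Ccnd1, and 21.6% of the 50-base stretches of Ccnd1 transcripts are also in LTO1. The libraries were strand-specific, but the sources used here do not say whether counting used the strand. LTO1 averaged 9.32, 9.83, 8.38, 10.1 and 11.5 CPM in EMPTY, the fusion alone, the receptor alone, RUNX1-ETO_FIRST and CSF3R_FIRST, and its part in the Ccnd1 counts was not tested.

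**Figure D2:**
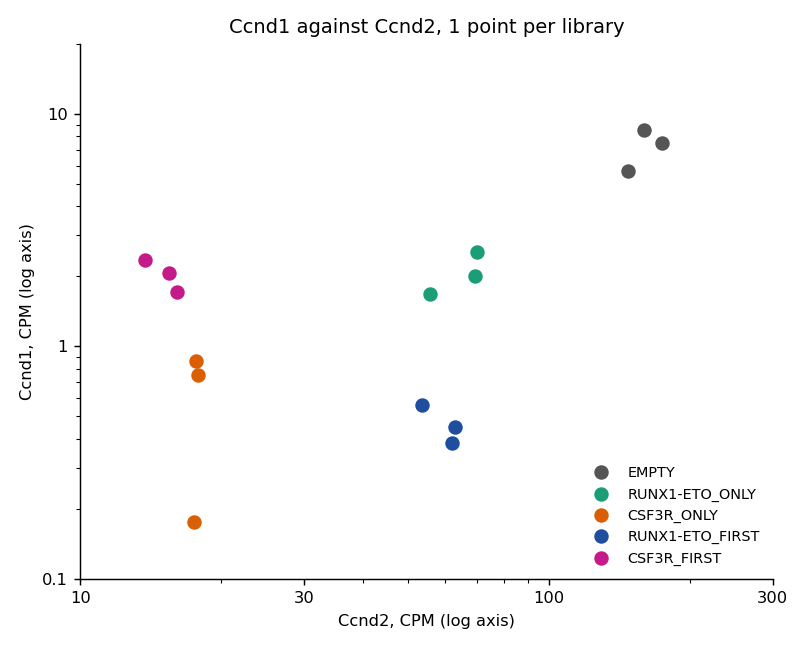
Ccnd1 against Ccnd2 in each of the 15 libraries, in CPM on log axes, coloured by group. RUNX1-ETO_FIRST shares the Ccnd2 range of RUNX1-ETO_ONLY at the Ccnd1 range of CSF3R_ONLY, and CSF3R_FIRST has Ccnd2 just under CSF3R_ONLY at the Ccnd1 range of RUNX1-ETO_ONLY.

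Cyclin D3, the most abundant of the family, went the other way in receptor cells. Ccnd3 (chromosome 17, 47505051 to 47599691, plus strand) had 401, 422 and 534 CPM in EMPTY and 726, 716 and 759.6 CPM in CSF3R_ONLY, with no overlap. It rose 1.62-fold with the receptor alone (log2 0.70, adjusted p = 7.58e-05) and was not past the test with the fusion alone, where the libraries had 409, 390.4 and 455 CPM. RUNX1-ETO_FIRST had 570.3, 476 and 518 CPM and CSF3R_FIRST 563, 513 and 539.7 CPM, overlapping each other. The order difference was −0.05 (95% interval −0.27 to 0.17). Adding the fusion to receptor cells lowered Ccnd3 (log2 −0.45, adjusted p = 0.00232), and adding the receptor to fusion cells raised it (log2 0.32, adjusted p = 0.0337). The latter call ended without RUNX1-ETO_ONLY replicate 1 or 2 or RUNX1-ETO_FIRST replicate 1 or 3 (adjusted p from 0.078 to 0.142) and with library sizes alone (0.0986). CSF3R_FIRST against EMPTY was at 0.25 (adjusted p = 0.053) and passed under 8 alternatives, among them with the replicate number as a block (0.0267), without EMPTY replicate 3 (0.00051) and without RUNX1-ETO_FIRST replicate 1 (0.0487). RUNX1-ETO_FIRST against EMPTY was at 0.20 (adjusted p = 0.127) and passed under 3 alternatives (lowest 0.000349), among them without EMPTY replicate 3.

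Per kilobase, cyclin D3 made up a larger share of D-type cyclin transcripts in all 4 groups with an allele. It was 73.3% ± 4.54 (SD, n = 3) of the summed level in EMPTY, 86.6% ± 2.29 in RUNX1-ETO_ONLY, 97.7% ± 0.115 in CSF3R_ONLY, 90.2% ± 1.44 in RUNX1-ETO_FIRST and 96.8% ± 0.239 in CSF3R_FIRST. The share of cyclin D2 went from 24.5% ± 4.03 in EMPTY to 12.6% ± 2.13, 2.19% ± 0.0502, 9.68% ± 1.46 and 2.54% ± 0.313 in the same order. No EMPTY library overlapped another group in either share. The summed level itself was 70.1 ± 6.64 CPM per kilobase in EMPTY, 55.0 ± 2.95 in RUNX1-ETO_ONLY, 85.6 ± 2.66 in CSF3R_ONLY, 65.8 ± 4.95 in RUNX1-ETO_FIRST and 63.4 ± 2.76 in CSF3R_FIRST. This sum differed far less between groups than cyclins D1 and D2 did, but most of it was cyclin D3 in every group, so it could hardly follow them. These shares depend on the transcript length assumed: with the longest coding transcript in place of all annotated exons, Ccnd3 was 88.5% in EMPTY and Ccnd2 10.7%. The log2 ratio of Ccnd2 to Ccnd1 per kilobase averaged 6.01 in RUNX1-ETO_FIRST and 1.90 in CSF3R_FIRST, 17.3-fold apart with no overlap (exact two-sided permutation p = 0.1, the smallest that 3 against 3 allows).

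**Figure D3:**
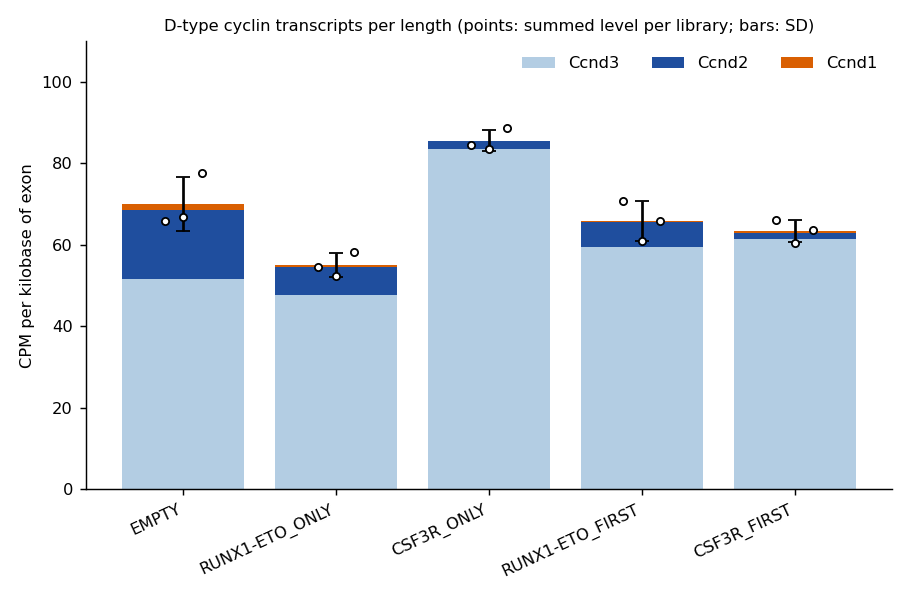
Stacked mean levels of the D-type cyclin genes in CPM per kilobase of annotated exon, by group; points are the summed level of each library and error bars its SD (n = 3). Ccnd3 makes up most of every bar, and the Ccnd2 portion is largest in EMPTY.

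E-type cyclin genes were highest with the receptor alone, and were lower again once the fusion was added. Ccne1 (chromosome 7, 38097984 to 38107534, minus strand) had 32.0, 27.4 and 31.2 CPM in EMPTY and 55.9, 51.5 and 49.9 CPM in CSF3R_ONLY. It had 29.4, 29.1 and 29.5 CPM with the fusion alone, 36.9, 32.3 and 36.6 CPM in RUNX1-ETO_FIRST and 25.9, 30.7 and 27.0 CPM in CSF3R_FIRST. Only CSF3R_ONLY stood well above the rest. Ccne2 (chromosome 4, 11191351 to 11204779, plus strand) had 41.5, 41.8 and 31.5 CPM in EMPTY and 60.6, 59.0 and 54.6 CPM in CSF3R_ONLY, against 28.3, 28.8 and 24.5 CPM in CSF3R_FIRST. It had 42.7, 37.5 and 41.3 CPM with the fusion alone and 30.3, 38.7 and 38.0 CPM in RUNX1-ETO_FIRST, both overlapping EMPTY. The receptor alone raised both (log2 0.80 and 0.60, adjusted p = 3.64e-06 and 0.000893), and adding the fusion to receptor cells lowered both (log2 −0.91 and −1.09, adjusted p = 5.19e-07 and 1.81e-06). Ccne2 was then under EMPTY in CSF3R_FIRST, by −0.49 (SE 0.12, adjusted p = 0.00273).

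Between the orders both E-type cyclins were higher with the fusion first, by 0.34 for Ccne1 (adjusted p = 0.0148) and 0.39 for Ccne2 (0.0344), without overlap of libraries. The Ccne1 call was lost on leaving out replicate 1 or 3 of either double group (adjusted p from 0.0534 to 0.0943) and with no low count filter (0.054). That of Ccne2 was lost on leaving out replicate 2 or 3 of RUNX1-ETO_FIRST, or any 1 replicate of CSF3R_FIRST (0.0669 to 0.18). Adding the receptor to fusion cells raised Ccne1 (log2 0.27, adjusted p = 0.0381), a call that ended in 8 alternatives (0.0524 to 0.218), among them without any 1 replicate of RUNX1-ETO_ONLY, CSF3R_ONLY replicate 2 or RUNX1-ETO_FIRST replicate 1 or 3. RUNX1-ETO_FIRST against EMPTY was at 0.22 for Ccne1 (adjusted p = 0.0545) and passed in 5 alternatives (0.0169 to 0.0467), among them without EMPTY replicate 1 and without RUNX1-ETO_FIRST replicate 2. Ints8, on the opposite strand of Ccne2, averaged 43.2 to 53.4 CPM by group and was highest in RUNX1-ETO_ONLY.

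The kinase genes moved little. Cdk4 (chromosome 10, 127063534 to 127067920, plus strand) had 441, 439.6 and 636 CPM in EMPTY and 395, 409.9 and 401 CPM in CSF3R_ONLY, the lowest group. It was called in none of the 7 pair comparisons, and the receptor-alone difference of −0.33 (adjusted p = 0.0613) passed in 7 alternatives (0.0101 to 0.0453), including without EMPTY replicate 1 or 2 (0.0273 to 0.0294). The size of this difference ranged from −0.42 to −0.15 over the alternatives. It was −0.15 with the 4 libraries poor in long transcripts left out, the setting of the lowest adjusted p (0.0101). Other Cdk4 differences passed in alternatives too, the fusion alone in 3 (lowest adjusted p 0.00685) and the fusion added to receptor cells in 2 (0.0126). CSF3R_FIRST against EMPTY and the receptor added to fusion cells each passed in 1 (0.0295 and 0.0427). The order difference of Cdk4 was 0.13 (95% interval −0.14 to 0.41). Tspan31, on its opposite strand, averaged 103 to 175 CPM by group. Cdk6 (chromosome 5, 3341485 to 3531008, plus strand) had 599.8, 673 and 723 CPM in RUNX1-ETO_FIRST and 586, 512 and 495 CPM in CSF3R_FIRST. It was 0.33 higher on the log2 scale with the fusion first (adjusted p = 0.0243), and CSF3R_FIRST was at −0.32 against EMPTY (adjusted p = 0.00875, and 0.0684 when the fit held these groups alone). The order call ended without replicate 2 or 3 of either double group (0.0716 to 0.169). Against EMPTY, where it had 635, 719 and 639 CPM, Cdk6 was not past the test with the fusion alone (723, 831 and 750.4 CPM) or the receptor alone (588, 638 and 572 CPM).

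Both inhibitors rose with the receptor, and Cdkn2c rose in all 4 groups with an allele. Cdkn2c (chromosome 4, 109660876 to 109667189, minus strand) had 11.3, 11.3 and 12.9 CPM in EMPTY, against 20.2, 19.0 and 21.2 CPM with the fusion alone and 23.1, 23.1 and 22.1 CPM with the receptor alone. RUNX1-ETO_FIRST had 18.7, 15.6 and 17.0 CPM and CSF3R_FIRST 17.6, 19.2 and 15.6 CPM. All 12 libraries with an allele lay above all 3 EMPTY libraries. The log2 differences from EMPTY were 0.77, 0.95, 0.53 and 0.57 in these 4 groups (adjusted p = 1.70e-05, 2.37e-06, 0.000546 and 0.000238), and that between the orders was −0.04 (95% interval −0.25 to 0.18). Adding the fusion to receptor cells lowered Cdkn2c (log2 −0.38, adjusted p = 0.00522).

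For p27, Cdkn1b (chromosome 6, 134920401 to 134925513, plus strand) had 53.2, 50.5 and 49.7 CPM in EMPTY and 46.6, 44.5 and 43.9 CPM in RUNX1-ETO_ONLY. CSF3R_ONLY had 75.0, 71.0 and 68.0 CPM, RUNX1-ETO_FIRST 59.1, 60.6 and 58.1 CPM and CSF3R_FIRST 63.7, 61.2 and 62.4 CPM. No 2 groups overlapped, and the 3 groups with the receptor were above EMPTY. The order difference was nevertheless small and not past the test (log2 −0.07, 95% interval −0.21 to 0.06, adjusted p = 0.482). The receptor alone raised Cdkn1b (log2 0.48, adjusted p = 2.71e-05), as did adding it to fusion cells (log2 0.40, adjusted p = 0.000261). RUNX1-ETO_FIRST and CSF3R_FIRST were 0.21 and 0.29 above EMPTY (adjusted p = 0.0147 and 0.00149), and the fusion alone gave −0.19 (0.0349). Adding the fusion to receptor cells gave −0.19 as well (0.0236). Several of these calls were lost on leaving out any 1 of several libraries, while the differences kept their sign. The fusion-alone call ended without EMPTY replicate 1 or 2 or RUNX1-ETO_ONLY replicate 2 or 3 (adjusted p from 0.0569 to 0.114), and also with library sizes alone, with no low count filter and with only the groups compared (0.164 to 0.234). That of RUNX1-ETO_FIRST ended without EMPTY replicate 3 (0.0631) or RUNX1-ETO_FIRST replicate 2 (0.0519), and under the same 3 settings (0.0625 to 0.153). The call for fusion added to receptor cells ended without CSF3R_ONLY replicate 1 or 2, RUNX1-ETO_FIRST replicate 3 or any 1 of the CSF3R_FIRST replicates (0.0555 to 0.143), with RLE size factors (0.0519) and with no low count filter (0.276). That of CSF3R_FIRST ended with library sizes alone (0.0906).

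Rb1, the target of the D-type cyclin kinases, was low in both groups that began with the fusion. Rb1 (chromosome 14, 73183673 to 73325822, minus strand) had 57.4, 54.9 and 45.3 CPM in EMPTY, against 42.6, 38.6 and 32.9 CPM with the fusion alone and 67.8, 69.7 and 74.4 CPM with the receptor alone. RUNX1-ETO_FIRST had 37.6, 42.8 and 42.3 CPM, overlapping RUNX1-ETO_ONLY, and CSF3R_FIRST 63.0, 53.5 and 53.0 CPM, overlapping EMPTY. It fell with the fusion alone (log2 −0.47, adjusted p = 0.00343) and in RUNX1-ETO_FIRST (−0.36, 0.0154), and rose with the receptor alone (0.43, 0.00715). With the fusion first it was 1.38-fold lower than in the other order (log2 −0.47, SE 0.111, adjusted p = 0.00803). Adding the fusion to receptor cells gave −0.32 (adjusted p = 0.0262), a call that ended without CSF3R_ONLY replicate 2 or 3, RUNX1-ETO_FIRST replicate 3 or CSF3R_FIRST replicate 2 or 3 (0.0542 to 0.137). The RUNX1-ETO_FIRST call ended without EMPTY replicate 1 (0.0682) or RUNX1-ETO_FIRST replicate 1 (0.0648) and with only the groups compared (0.0537). Of its opposite-strand neighbours, Rcbtb2 averaged 27.4 to 40.9 CPM and Lpar6 10.8 to 28.1 CPM by group, both highest in EMPTY.

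**Figure D4:**
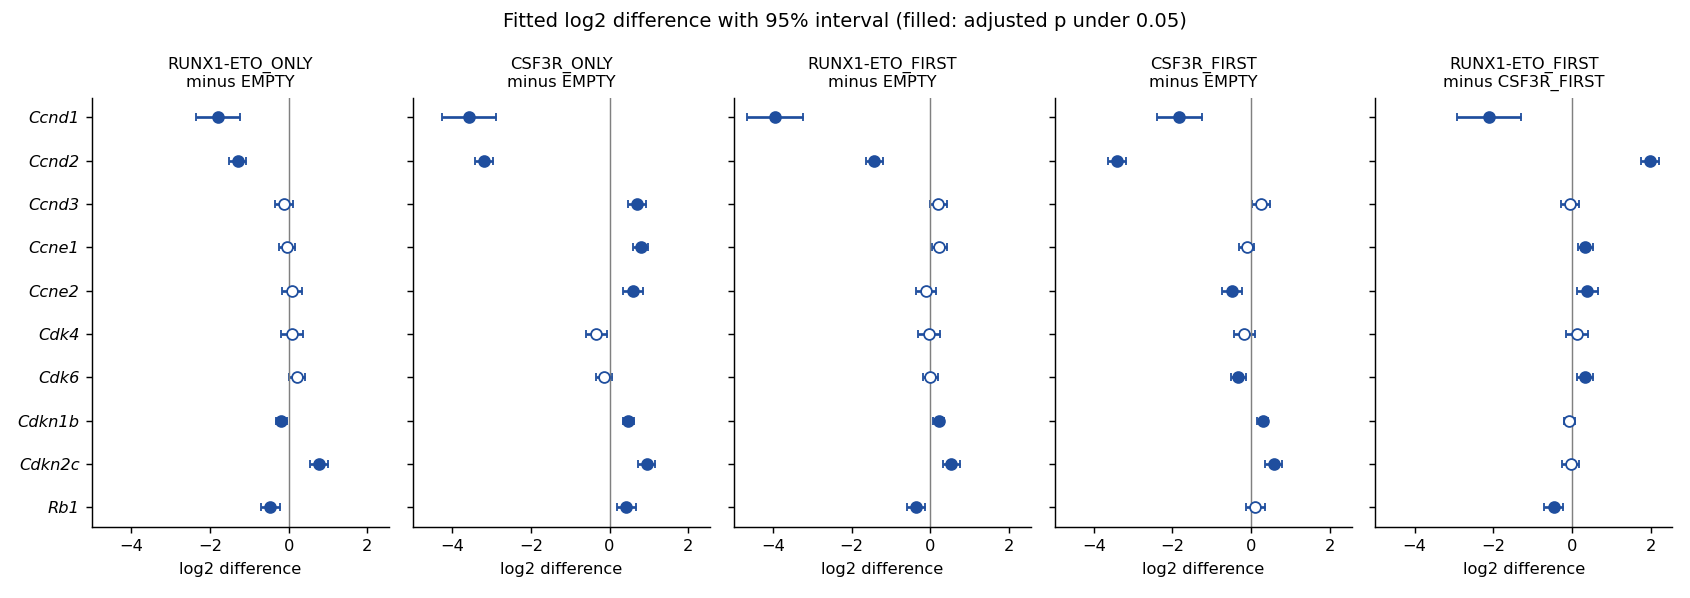
Fitted log2 differences of each member with 95% intervals in 5 comparisons; filled points have an adjusted p under 0.05 by edgeR. Ccnd1 and Ccnd2 lie left of 0 in the 4 comparisons with EMPTY and on opposite sides of 0 in the comparison of the orders.

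Counted over the members, the order of the alleles called 4 of 10 higher with the fusion first and 2 lower, where 7.22% and 11.1% of all tested genes were called higher and lower. With library sizes alone the split over all genes was 1841 higher and 1131 lower in place of 948 and 1459, while the member counts stayed at 4 and 2. The fusion alone called 1 higher and 4 lower (all genes 20.8% and 18.2%), and the receptor alone 6 and 2 (19.9% and 13.2%, or 2247 and 2333 genes with library sizes alone in place of 2617 and 1730). RUNX1-ETO_FIRST called 2 higher and 3 lower than EMPTY (23.7% and 20.2%, or 2877 and 3085 genes with library sizes alone in place of 3114 and 2653), and CSF3R_FIRST 2 and 4 (26.8% and 26.7%, or 2942 and 4830 genes with library sizes alone in place of 3516 and 3504). These comparisons share the EMPTY libraries. Adding the receptor to fusion cells called 3 and 1 (16% and 10.3%, or 1668 and 2698 genes with library sizes alone in place of 2097 and 1357), and adding the fusion to receptor cells 1 and 6 (22.3% and 22.6%, or 2520 and 3640 genes in place of 2924 and 2971). With library sizes alone the members called higher and lower were 1 and 3 when the receptor was added to fusion cells, 1 and 3 in RUNX1-ETO_FIRST and 1 and 6 in CSF3R_FIRST. They were 1 and 8 when the fusion was added to receptor cells, 6 and 3 with the receptor alone and 2 and 3 with the fusion alone (3267 and 1996 of all genes). Over all 10 members the median log2 difference was 0.45 with the receptor alone (0 over all genes) and −0.27 when the fusion was added to receptor cells (−0.02).

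Additivity was tested on the log2 scale, as the difference of a double group from EMPTY less the sum of the differences of both single groups from EMPTY. The tests of both orders share the EMPTY, RUNX1-ETO_ONLY and CSF3R_ONLY libraries, so a like outcome in both is not independent evidence. With the fusion first, 1 member was above and 3 below the additive value (all genes 6.42% and 9.42%), and with the receptor first 2 above and 4 below (10.4% and 12.5%, or 1003 and 2725 genes with library sizes alone in place of 1368 and 1636). Ccnd2 exceeded the additive value by 3.05 with the fusion first (adjusted p = 1.63e-09) and 1.07 with the receptor first (8.15e-05). Ccnd1 exceeded it by 3.55 with the receptor first (3.56e-05). Ccne1, Ccne2 and Cdkn2c fell short of it in both orders, by −0.53, −0.79 and −1.19 with the fusion first (0.00845, 0.00397 and 2.61e-05) and −0.87, −1.18 and −1.15 with the receptor first (0.000137, 0.000118 and 3.04e-05).

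Other regulators of G1 gave 34 genes, 33 of them in the table and 32 tested, of which 3 were higher and 2 lower with the fusion first (7.22% and 11.1% of all tested genes; median log2 0.14 against 0.00). The count of higher genes was 11 with library sizes alone, 13 with limma-voom, 9 with the 4 libraries poor in long transcripts left out, 7 without EMPTY replicate 3 and 5 without RUNX1-ETO_FIRST replicate 1. Against EMPTY, 6 rose and 4 fell with the fusion alone, where 20.8% and 18.2% of all genes did, and 11 and 2 with the receptor alone (19.9% and 13.2%). In RUNX1-ETO_FIRST 7 rose and 10 fell (23.7% and 20.2%), and in CSF3R_FIRST 5 and 14 (26.8% and 26.7%). The fusion-alone falls numbered 7 without EMPTY replicate 3 and 2 without RUNX1-ETO_ONLY replicate 1. The receptor-alone falls numbered 4 without EMPTY replicate 3 or RUNX1-ETO_FIRST replicate 3, 1 without CSF3R_ONLY replicate 1 or 3, 6 with library sizes alone or limma-voom and 7 with the 4 libraries left out. With only the groups compared, the fusion alone had 2 and 1, and the falls of the double groups numbered 4 and 9.

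Further inhibitors were among the largest changes. Cdkn2a, which encodes p16 and p19ARF from shared exons that these counts do not separate, had 3 to 9 counts in EMPTY libraries and 49 to 93 in all others. Its mean was 0.392 ± 0.183 CPM in EMPTY, 4.43 ± 0.308 in RUNX1-ETO_ONLY, 3.65 ± 0.934 in CSF3R_ONLY, 4.07 ± 0.597 in RUNX1-ETO_FIRST and 3.91 ± 0.128 in CSF3R_FIRST (SD, n = 3). These libraries all lay above the EMPTY libraries, at log2 differences of 3.46, 3.18, 3.34 and 3.28 (adjusted p from 7.87e-08 to 3.68e-07). Cdkn2b, encoding p15, had 1 or 2 counts in EMPTY libraries, 4 to 12 with 1 allele, 18 to 30 with the fusion first and 45 to 67 with the receptor first. It was 2.76-fold lower with the fusion first (log2 −1.47, SE 0.295, adjusted p = 0.00243). Cdkn1a, encoding p21, averaged 175 ± 26.8 CPM in EMPTY and 495 ± 45.4 in RUNX1-ETO_FIRST (log2 1.5, adjusted p = 5.02e-09). It averaged 537 ± 32.0 CPM in CSF3R_FIRST, 310 ± 8.43 in CSF3R_ONLY and 172 ± 5.61 in RUNX1-ETO_ONLY. Cdkn2d, encoding p19INK4D, averaged 24.5 ± 2.42 CPM in EMPTY and 80.0 ± 0.562 in CSF3R_ONLY (log2 1.71, adjusted p = 1.59e-09).

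**Figure D5:**
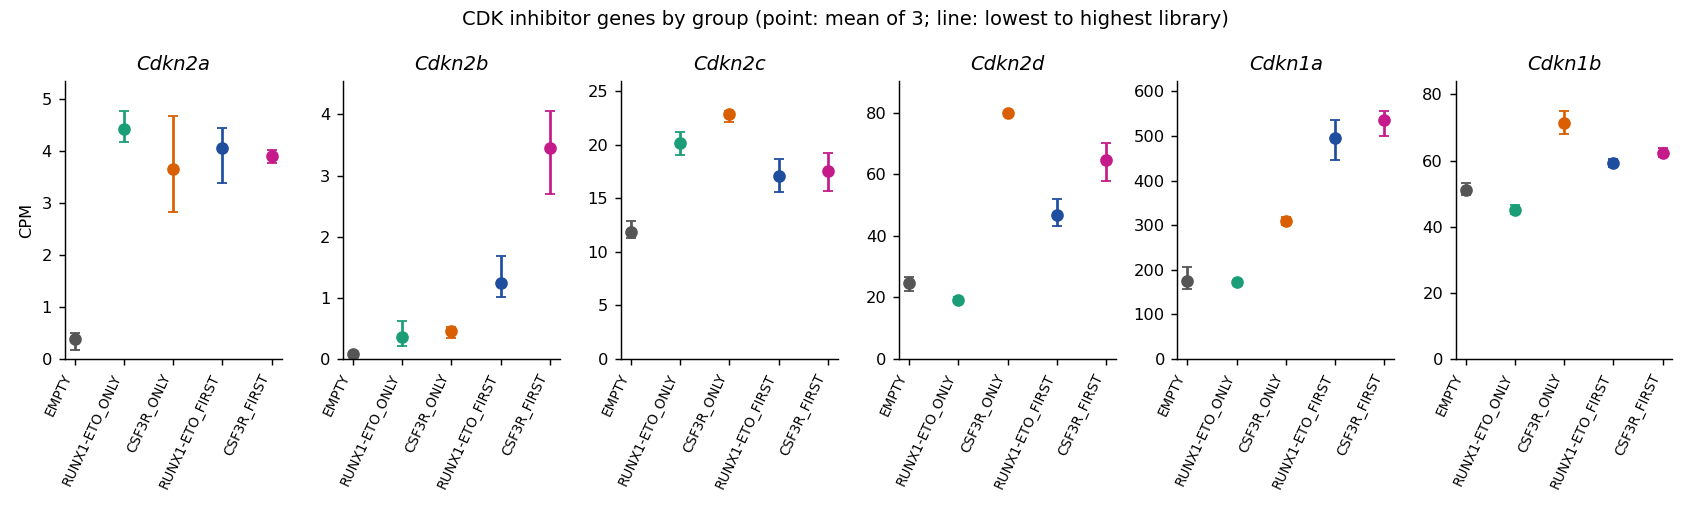
CPM of 6 CDK inhibitor genes by group, each panel with its own axis from 0; points are means of 3 libraries and lines run from the lowest to the highest library. Cdkn2a and Cdkn2c are lowest in EMPTY, Cdkn2b is highest in CSF3R_FIRST and Cdkn2d in CSF3R_ONLY.

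Of the transcription factors, E2f2 averaged 35.1 ± 5.64 CPM in EMPTY and 164 ± 6.41 in CSF3R_ONLY (log2 2.22, adjusted p = 5.09e-10) but 31.9 ± 2.26 in CSF3R_FIRST, so that adding the fusion to receptor cells lowered it (log2 −2.36, adjusted p = 1.91e-10). Foxo1, which restrains the cycle and is turned off by growth signals, went from 3.86 ± 0.671 CPM in EMPTY to 23.6 ± 2.52 with the fusion alone, 17.0 ± 1.69 in RUNX1-ETO_FIRST and 17.2 ± 1.66 in CSF3R_FIRST (log2 2.61, 2.13 and 2.15). Tfdp2, a dimer partner of E2F, and Skp2, which directs p27 to degradation, were higher with the fusion first (log2 0.77 and 0.56, adjusted p = 0.00462 and 0.00263). Tfdp2 averaged 16.9 against 9.90 CPM there and 34.3 in EMPTY. E2f7, an E2F repressor, was also called higher with the fusion first (log2 0.57, adjusted p = 0.0461), and that call ended in 11 alternatives (0.0503 to 0.202), among them without any 1 replicate of CSF3R_ONLY or CSF3R_FIRST, RUNX1-ETO_FIRST replicate 2 or 3, or RUNX1-ETO_ONLY replicate 2.

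Most of 16 E2F target genes of S phase entry were lower than in EMPTY in both double groups. In RUNX1-ETO_FIRST 15 fell and 1 rose against EMPTY (9 fell with only the groups compared), with a median log2 difference of −0.34 against −0.02 over all genes. Of all genes 20.2% fell and 23.7% rose there. In CSF3R_FIRST 15 fell (26.7% of all genes fell and 26.8% rose), with a median of −0.64 against −0.05. The 1 that rose did not pass in 14 alternatives, among them without any 1 replicate of a single group, EMPTY replicate 1 or 2, replicate 2 or 3 of RUNX1-ETO_FIRST, or replicate 1 or 3 of CSF3R_FIRST. The fusion alone gave 1 risen and 4 fallen (20.8% and 18.2% of all genes). The receptor alone gave 3 and 2, near the background of 19.9% and 13.2%. With only the groups compared, 1 fell with the fusion alone and 1 rose with the receptor alone, and with the 4 libraries poor in long transcripts left out 7 fell with the fusion alone, and 6 rose and 4 fell with the receptor alone. Adding the fusion to receptor cells lowered 15 of 16 and raised 0 (22.6% and 22.3% of all genes), with a median log2 difference of −0.63. Adding the receptor to fusion cells lowered 12 and raised 0 (10.3% and 16%), with a median of −0.23. The count lowered by the receptor was 6 to 13 over the alternatives. Between the orders 12 of 16 were higher with the fusion first and 0 lower (7.22% and 11.1% of all genes). This count of 12 was 6 without RUNX1-ETO_FIRST replicate 2 and 7 without any 1 of the CSF3R_FIRST replicates. Tyms, thymidylate synthase, was the gene that rose in RUNX1-ETO_FIRST (log2 0.62, adjusted p = 0.000196). Mcm6, a helicase subunit, averaged 469 ± 60.1 CPM in EMPTY, 293 ± 5.66 in RUNX1-ETO_FIRST and 251 ± 10.5 in CSF3R_FIRST. Cdt1, a replication licensing factor, averaged 175 ± 8.17, 137 ± 3.78 and 98.6 ± 7.40 CPM in these groups, and 1.39-fold more with the fusion first than in the other order (adjusted p = 0.000152). Rrm2, a ribonucleotide reductase subunit, was opposite in the single groups, at 258 ± 7.42 CPM in EMPTY, 174 ± 9.48 with the fusion and 368 ± 2.75 with the receptor (log2 −0.57 and 0.51, adjusted p = 1.84e-06 and 8.09e-06).

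Genes with the profile closest to those of Ccnd1 and Ccnd2 were found by the root mean square difference of centred log2 CPM over the 15 libraries, among named genes whose mean log2 CPM reached 3. Closest to Ccnd1 were Kit, the stem cell factor receptor, at 0.80, Snx9 at 0.99 and Synj2 at 1.0, against a median of 1.43 over 8567 genes. Kit averaged 331 ± 18.1 CPM in EMPTY, 187 ± 5.10 in RUNX1-ETO_ONLY, 86.1 ± 7.39 in CSF3R_ONLY, 119 ± 5.71 in RUNX1-ETO_FIRST and 219 ± 16.1 in CSF3R_FIRST. Its double groups, like those of Ccnd1, lay nearer the group of the second allele than that of the first. Snx9 and Synj2 did not share this in both orders. Snx9 averaged 42.6 CPM in RUNX1-ETO_ONLY, 29.1 in CSF3R_ONLY, 25.6 in RUNX1-ETO_FIRST and 31.9 in CSF3R_FIRST. Synj2 averaged 5.67, 9.45, 4.74 and 9.38 CPM in the same order, with both double groups nearer the first allele. Closest to Ccnd2 were Met, the hepatocyte growth factor receptor, at 0.73, Nebl at 0.74 and Nav2 at 0.75, against a median of 1.29. Met had 41.0 ± 8.81 CPM in RUNX1-ETO_ONLY and 42.6 ± 8.28 in RUNX1-ETO_FIRST against 9.0 ± 0.382 in CSF3R_ONLY and 11.6 ± 1.0 in CSF3R_FIRST. Unlike Ccnd2 it averaged no lower than EMPTY in these fusion groups, where EMPTY had 34.3 ± 12.1 CPM. Nebl averaged 71.0 CPM in EMPTY, and 17.8, 16.5, 17.9 and 12.2 in RUNX1-ETO_ONLY, CSF3R_ONLY, RUNX1-ETO_FIRST and CSF3R_FIRST. Nav2 averaged 66.6 CPM in EMPTY, and 23.1, 16.0, 25.8 and 19.4 in the same order. These profiles share the libraries and their depth, and with a minimum of 5 the 3 closest to Ccnd2 were Cnn3, Smtn and Tspoap1.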

How the data were processed

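mRNA was measured in 15 libraries. Per the labels' protocols, RNA was column-purified with DNase digestion and strand-specific libraries were sequenced by BGI DNBSEQ. The authors deposited raw counts per gene symbol, 1 column per library. Trimmomatic, STAR, DESeq2 and the build mm10 are named, without roles, per the submitters' processing notes. The sources used here give no counting program, annotation or strand setting. The 1 entry naming no gene, with 0.0179% to 0.0305% of counts, was left out.

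The fit across all genes used edgeR 4.0.16 in R 4.3.3: filterByExpr within groups, TMM scaling (factors 0.921 to 1.09), 5 group means, 10 residual degrees of freedom, robust quasi-likelihood F tests, two-sided, adjusted by Benjamini and Hochberg over 13123 genes per comparison, threshold 0.05. It was tested on simulated data. SE values are on the log2 scale. CPM uses the TMM factors, and log2 CPM a prior count of 2. No library pair was identical. Same-numbered libraries deviated together, with every correlation over 0.1, for EMPTY with RUNX1-ETO_ONLY (0.284, 0.283 and 0.455) and EMPTY with CSF3R_FIRST (0.165, 0.136 and 0.37). No other pair of groups met that bar, and the labels do not say what a number marks.

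Alternatives were RLE size factors, library sizes alone, no low count filter, DESeq2 1.42.0, limma-voom (limma 3.58.1) with sample weights, no robust priors, only the groups compared, a replicate block, 4 libraries left out together and each library left out in turn. The same alternatives for the lists of other G1 regulators and E2F targets were added after seeing the data. Positions and exon lengths are from GENCODE release M21 on mm10, and promoters from RefSeq on GRCm38.p6. The lists were 34 other regulators (Skp1a is not in the table and Cdkn1c was too low to test) and 16 E2F targets. The genes to name were all 10 members, the 3 most similar to Ccnd1 and to Ccnd2 and, per list and comparison, at most 4 called genes with the biggest change. The promoters planned for printing were those of Ccnd1 and Ccnd2, which were not at hand, and those printed were chosen after their motif matches were seen. Members, lists and tests were chosen with earlier results of these data known.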

Additional observations from a re-analysis of the deposited data

Results flagged for a closer look

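Tests of additivity found that the effect of 1 allele on a member differed with the presence of the other (edgeR's quasi-likelihood test, Benjamini-Hochberg adjustment over 13123 genes). A value is the log2 difference between the double group and the sum of both single effects. Both orders share the EMPTY and single-allele libraries. With the fusion first, Ccnd2 was at 3.05 (adjusted p = 1.63e-09), Ccne1 at −0.53 (0.00845), Ccne2 at −0.79 (0.00397) and Cdkn2c at −1.19 (2.61e-05). With the receptor first, Ccnd1 was at 3.55 (3.56e-05), Ccnd2 at 1.07 (8.15e-05), Ccne1 at −0.87 (0.000137), Ccne2 at −1.18 (0.000118) and Cdkn2c at −1.15 (3.04e-05). Cdk6 was at −0.38 (adjusted p = 0.0489), a call that ended in 17 of 24 alternatives (adjusted p from 0.0513 to 0.179), among them without EMPTY replicate 1 or 3, without replicate 2 or 3 of either double group, and without any 1 replicate of RUNX1-ETO_ONLY or CSF3R_ONLY. Ccnd1 with the fusion first was at 1.44 (adjusted p = 0.0915), and passed without EMPTY replicate 3 (0.0439), with DESeq2 and with limma-voom (0.0289 to 0.0358).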

How the results depend on the processing

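The calls of Ccnd1 and Ccnd2 in the 7 pair comparisons kept their direction and side of the threshold under all 24 alternatives, except Ccnd2 when the fusion was added to receptor cells. In the order comparison Ccnd1 ranged from −2.29 to −2.00 and Ccnd2 from 1.89 to 2.08. Members not past the test there changed sign: with library sizes alone Ccnd3 was at 0.052, Cdkn1b at 0.025 and Cdkn2c at 0.063. Leaving out 1 library, Ccnd3 ranged from −0.116 to 0.015 and Cdkn2c from −0.137 to 0.028, both above 0 without RUNX1-ETO_FIRST replicate 2, and Cdkn2c also without CSF3R_FIRST replicate 2 (0.014). The cause was not tested.

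Leaving out 1 library, the number of members called ranged from 3 to 6 for the order (6 with all libraries), with 3 without RUNX1-ETO_FIRST replicate 3 or CSF3R_FIRST replicate 3. It ranged from 2 to 4 for the receptor added to fusion cells (4), with 2 without RUNX1-ETO_ONLY replicate 1 or 2 or RUNX1-ETO_FIRST replicate 1 or 3. With only the groups compared it was 3 rather than 5 for RUNX1-ETO_FIRST against EMPTY, where fewer libraries enter the fit. With a replicate block the order called 6 members, the receptor alone 9 rather than 8 (Cdk4, 0.0453) and CSF3R_FIRST 7 rather than 6 (Ccnd3, 0.0267). In the comparisons of groups whose same-numbered libraries deviated together, CSF3R_FIRST and the fusion alone against EMPTY, the block changed no other member's call. In EMPTY, RUNX1-ETO_ONLY and CSF3R_FIRST the library poor in long transcripts was replicate 3, and its part in these correlations was not tested. Over all pairs of groups, 9 of 30 same-numbered pairs had a correlation of deviations over 0.1 (range −0.243 to 0.455).

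Over all genes, 2407 differed between the orders and 2078 were non-additive with the fusion first. These were 4305 and 3480 with limma-voom and 4436 and 3460 with the 4 libraries poor in long transcripts left out. Library sizes alone moved the median of all genes by more than 0.1 in several comparisons, to −0.19 for CSF3R_FIRST against EMPTY and −0.14 for the receptor added to fusion cells. Depth limits Ccnd1, Cdkn2a and Cdkn2b, with 1 to 15 counts in their lowest groups.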
